A study of Rattus norvegicus with 17 samples.

Results

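Bone morphogenetic protein (BMP) ligands and the secreted proteins that bind and block them were followed in cultured fetal rat gubernaculum, the ligament bulb that anchors the testis, with and without insulin-like 3 (Insl3). The set holds 10 of the 14217 genes that the array's annotation gives a probe set of their own, the antagonists Chrdl1, Chrdl2, Grem1, Nog and Bmper and the ligands Bmp2, Bmp3, Bmp4, Bmp6 and Bmp7. Every probe set of the array annotated to 1 of these genes alone was taken, whatever its values, which gave 14 probe sets of 31042 that are not manufacturer's controls. Of these, 11 probe sets of 9 genes were above the low end of the scale often enough to be tested, among 18938 tested in all. Chrdl2, Bmp2 and Bmp3 transcripts were higher after 100 nM Insl3 than in control cultures, by 11.8-fold for Chrdl2, 2.16-fold and 2.00-fold for the 2 probe sets of Bmp2 and 2.71-fold for Bmp3. No member passed the test in the lower direction at either dose.

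BMPs are secreted dimers of the transforming growth factor beta superfamily that bind paired type I and type II serine-threonine kinase receptors, which phosphorylate the receptor Smads that enter the nucleus with Smad4. Noggin, gremlin and the chordin-like proteins bind BMPs outside the cell and keep them from their receptors, and tolloid proteases cleave chordin to release them. Insl3 is a peptide hormone of fetal Leydig cells whose receptor, Rxfp2, couples to cyclic AMP, and it drives the swelling of the gubernaculum that holds the testis low during descent.

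Gubernacula came from Long Evans rat fetuses on gestational day 17, described as male in the series title, and 2 bulbs were pooled per biological replicate. All cultures, controls included, first spent 24 h in medium without added hormone, with charcoal-stripped serum and an insulin, transferrin and selenium supplement. They then spent a further 24 h without hormone (control, 6 arrays), with 10 nM Insl3 (5 arrays) or with 100 nM Insl3 (6 arrays). The submitters judged 10 nM replicates 4 and 5 to be outliers, with a labelled cRNA yield of 25.66 and 33.68 µg, so the tests used 15 arrays and 3 at 10 nM. The culture is explanted tissue away from testis and fetus, and a replicate mixes all cell types of its bulbs.

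Values are log2 signals made by the submitters with GCRMA, from 2.11, the floor of the scale, to 16.90, and any 2 kept arrays correlated at 0.978 to 0.996 across tested probe sets. Among markers of the tissue, 8 of 9 genes of the gubernaculum and mesenchyme list had a probe set, and Rxfp2 was not among them. All 8 were above the low end of the scale often enough to be tested. The array means over these 8 genes were 12.46 to 12.96 at 100 nM, against 12.25 to 12.38 in controls. Of the 8 genes 1 passed the test at 100 nM, Twist2, a mesenchymal transcription factor, which rose by 2.83 log2 units (adjusted p = 6.93e-05, limma), and the list's median difference was 0.04. Skeletal muscle markers, 7 of 8 with a probe set, gave 12.17 to 12.87 at 100 nM and 12.46 to 12.86 in controls, and 1 of the 7, Myod1, fell at 100 nM by 0.32 (adjusted p = 0.0238, limma). Smooth muscle markers had array means of 8.17 to 8.43 at 10 nM, against 7.27 to 7.98 in controls. Of their 4 genes, Myh11 rose by 2.65 at 10 nM and Tagln fell by 0.43 (adjusted p = 0.0279 and 0.0299, limma), and none passed at 100 nM. Cartilage and bone markers lay between 2.11 and 2.18 in array mean in every kept array, with Acan and Bglap never above the filter. Blood markers were lower at 100 nM: 5 of 6 measured erythroid genes fell at 100 nM (array means 6.69 to 9.28, against 9.05 to 11.30 in controls), as did 3 of 3 granulocyte genes and 4 of 6 leukocyte and macrophage genes, and none of these was called at 10 nM. Of the endothelial genes, 2 of 3 tested, Kdr and Cldn5, rose at both doses, and the array means of the 4 genes measured were 6.86 to 7.27 at 100 nM and 6.50 to 6.93 at 10 nM, against 5.93 to 6.28 in controls, with Tek never above the filter. The part of these markers in the results below was not tested. In bulk tissue, fewer cells of a type and less RNA per cell cannot be told apart.

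RefSeq promoter sequences of the rat assembly GRCr8, which run from 250 bases before to 50 bases after the start of a gene, were matched for 7 of the 10 members, all but Chrdl2, Bmp2 and Bmp7. Those of Bmp3, the member that rose and has a sequence, and of Bmp4, a ligand that did not pass the test at either dose, are shown to set their letters side by side. The Bmp3 window is chr14:11041233-11041532 and the Bmp4 window chr15:22101884-22102183, both on the minus strand, written 5′ to 3′ with motif matches in capitals.
Bmp3: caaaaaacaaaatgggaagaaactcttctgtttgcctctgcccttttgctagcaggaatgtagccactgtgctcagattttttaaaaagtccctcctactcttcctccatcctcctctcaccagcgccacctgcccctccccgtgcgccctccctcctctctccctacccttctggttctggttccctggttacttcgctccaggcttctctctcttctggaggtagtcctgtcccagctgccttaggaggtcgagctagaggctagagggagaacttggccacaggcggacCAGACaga
Bmp4: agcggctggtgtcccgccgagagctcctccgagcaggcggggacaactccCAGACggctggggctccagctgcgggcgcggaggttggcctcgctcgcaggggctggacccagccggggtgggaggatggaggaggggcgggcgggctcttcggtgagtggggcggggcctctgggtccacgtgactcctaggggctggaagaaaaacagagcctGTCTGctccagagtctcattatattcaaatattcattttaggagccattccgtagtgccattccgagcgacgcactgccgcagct
Both strands were searched for the full cyclic AMP response element TGACGTCA, its core TGACG, which lies within the full site, the BMP-responsive GC site GGCGCC, the Smad-binding box CAGAC and the TATA box TATAAA. The Bmp3 window held CAGAC once, with its first base at position 43 after the start. The Bmp4 window held CAGAC at -200 and its reverse complement at -35. Neither window held any of the other letters searched. CAGAC stood in 50.1% of 33465 promoter windows of this length, TGACG in 21.2%, TATAAA in 14.2%, GGCGCC in 11% and TGACGTCA in 1.83%. Among the other 5 windows, CAGAC occurred in those of Chrdl1, Grem1 and Nog, TGACG in that of Bmp6 and GGCGCC in those of Grem1, Nog and Bmper.

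In the comparison of 100 nM Insl3 with control, 4 of the 11 tested member probe sets were higher and 0 lower at an adjusted p under 0.05 (limma, Benjamini-Hochberg over all 18938 probe sets). That is 36.4% of the tested members, where 10.9% of all tested probe sets were called in either direction, 6.51% higher and 4.39% lower. Bmp2 gave 2 of the 4 calls, so 3 of the 9 tested genes were called. Every 100 nM array lay above every control array for 2 of the 11, against 3.48% of all tested probe sets. At 10 nM, 2 member probe sets were higher and 0 lower, or 18.2%, against a background of 10.6% in either direction, 4.88% higher and 5.70% lower. Again 2 lay wholly above the controls and 0 wholly below, where 9.15% and 7.81% of all tested probe sets did. The median log2 difference over the 11 members was 0.04 at 100 nM and 0.06 at 10 nM, beside -0.00 and 0.03 over all tested probe sets. Both comparisons use the same 6 controls. The members were chosen with earlier results of these data known, so these shares cannot test for an excess over the background.

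**Figure D1:**
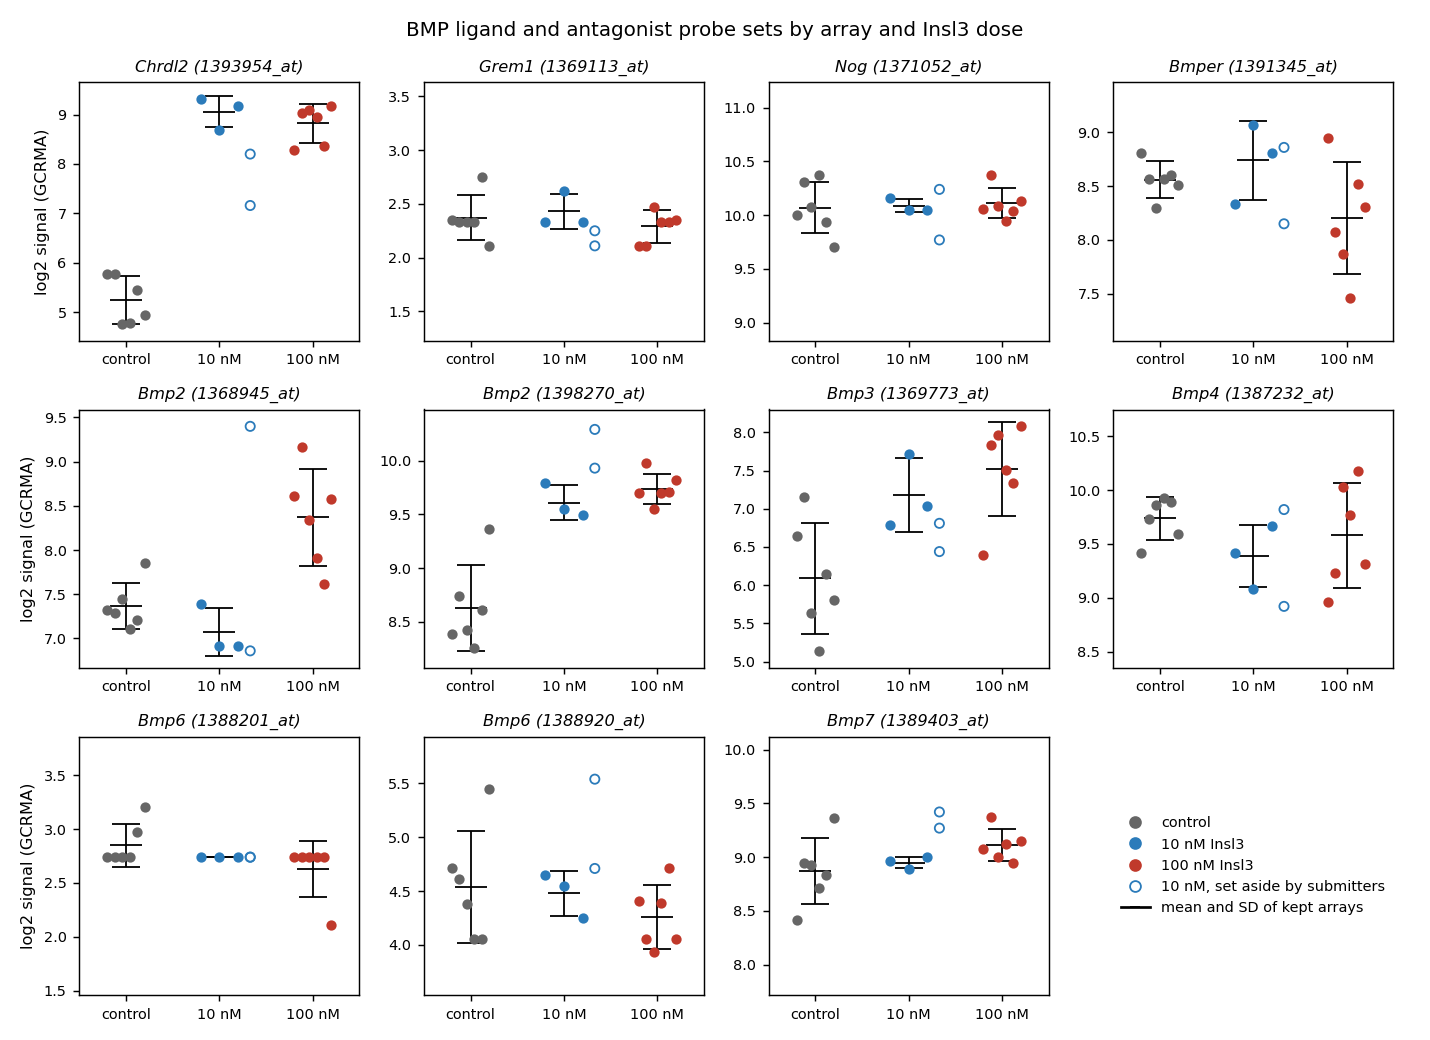
Log2 GCRMA signal (y axis) of the 11 tested member probe sets in every array, by group (x axis), with each group's mean and SD over kept arrays as black bars. The kept Chrdl2 arrays of both doses lie at 8.28 to 9.31, above all controls (4.77 to 5.78). Open circles are the set-aside 10 nM arrays, which for Chrdl2 lie at 7.16 and 8.20.

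Among the antagonists, Chrdl2, a chordin-like protein that binds BMPs through its cysteine-rich repeats, was the member with the largest difference at both doses. Its signal was 4.77, 5.20 and 5.78 in controls (lowest, median, highest), 9.31, 8.69 and 9.18 in the 3 arrays at 10 nM, and 8.28, 8.99 and 9.18 at 100 nM. All 9 treated arrays lay above the highest control, and the ranges of the 2 doses overlapped. Means were 5.25 ± 0.48 in controls (SD, n = 6), 9.06 ± 0.32 at 10 nM (n = 3) and 8.82 ± 0.39 at 100 nM (n = 6). The difference from control was 3.56 ± 0.23 log2 units at 100 nM (SE; 95% interval 3.08 to 4.05; adjusted p = 3.75e-07, limma). At 10 nM it was 3.81 ± 0.28, or 14.0-fold (interval 3.21 to 4.40; adjusted p = 5.62e-06, limma). The 2 doses did not differ detectably, with 100 nM minus 10 nM at -0.24 (interval -0.84 to 0.35; adjusted p = 0.802, limma). The set-aside 10 nM arrays read 7.16 and 8.20, between the controls and the other treated arrays.

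The tested probe sets whose profile over the 15 arrays was closest to that of Chrdl2, each taken relative to its control mean, were those of Pde10a, Gda, Sphkap, Wnt2 and Col8a1, in that order among 14544 single-gene probe sets compared. Their root mean square distance from Chrdl2 was 0.43, 0.50, 0.52, 0.55 and 0.61 log2 units. Pde10a encodes a cyclic nucleotide phosphodiesterase, and its difference from control was 3.63 at 100 nM and 3.65 at 10 nM on the log2 scale, where Chrdl2 had 3.56 and 3.81. Wnt2, a secreted Wnt ligand, differed by 4.12 and 3.57, and Col8a1, a short-chain collagen, by 4.27 and 3.41. Gda, Wnt2 and Col8a1 had control means of 2.24, 2.21 and 2.34, next to the floor. The bearing of the floor on the distances and on the order of closeness was not tested.

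The other antagonists gave no call at either dose. Noggin is a high-affinity antagonist of several BMPs. Its transcript Nog had a signal of 9.70 to 10.37 in controls, with a mean of 10.09 ± 0.06 at 10 nM (SD, n = 3) and a range of 9.95 to 10.37 at 100 nM. The 100 nM range lay inside that of the controls, and the difference was 0.04 log2 units (interval -0.18 to 0.27; adjusted p = 0.842, limma). Bmper, a cysteine-rich protein that binds BMPs and can hinder or help their signal, read 8.30, 8.57 and 8.81 in controls (lowest, median, highest), 8.33, 9.07 and 8.81 at 10 nM, and 7.46, 8.19 and 8.95 at 100 nM. The spread at 100 nM, an SD of 0.52, was wider than the 0.17 of the controls, and the ranges overlapped. Bmper differed from control by -0.36 ± 0.21 at 100 nM (SE; adjusted p = 0.294, limma) and from 10 nM by -0.54 (interval -1.09 to 0.01; adjusted p = 0.417, limma). Grem1, the transcript of gremlin, stayed between 2.11 and 2.75 in every array, at or near the floor, and its largest difference was -0.14 between the doses (adjusted p = 0.72, limma). Chrdl1, the other chordin-like gene, read 2.11 to 2.12 in every array and was not tested, so its transcript was not detectable above background with this probe set.

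Among the ligands, Bmp2, a potent osteogenic BMP that signals through Bmpr1a and Bmpr2, has 2 probe sets that gave the same direction at 100 nM and different calls at 10 nM. Probe set 1398270_at read 8.26, 8.52 and 9.36 in controls (lowest, median, highest), 9.79, 9.55 and 9.49 at 10 nM, and 9.55, 9.70 and 9.98 at 100 nM. All kept arrays of both doses lay above all controls, the highest of which was replicate 6. It differed from control by 1.11 ± 0.15 at 100 nM (SE; interval 0.78 to 1.44; adjusted p = 4.87e-04, limma) and by 0.98 ± 0.19, or 1.97-fold, at 10 nM (interval 0.57 to 1.38; adjusted p = 0.0043, limma). Between the doses it differed by 0.13 (interval -0.27 to 0.54; adjusted p = 0.852, limma). Its set-aside 10 nM arrays read 9.93 and 10.29, also above all controls.

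Probe set 1368945_at of Bmp2 read 7.11, 7.30 and 7.85 in controls, 7.39, 6.91 and 6.92 at 10 nM, and 7.62, 8.46 and 9.17 at 100 nM. Of the 10 nM arrays, 1 lay within the control range and 2 below it, and 1 of the 6 arrays at 100 nM, replicate 5, fell within the control range. The difference from control was 1.00 ± 0.22 at 100 nM (SE; interval 0.53 to 1.48; adjusted p = 0.0112, limma) and -0.30 ± 0.27 at 10 nM (interval -0.88 to 0.29; adjusted p = 0.555, limma). The 100 nM arrays were all above the 10 nM arrays, by 1.30 ± 0.27 log2 units or 2.46-fold (interval 0.72 to 1.88; adjusted p = 0.036, limma). This was the 1 member probe set of 11 called between the doses, or 9.09%, and the 1 whose groups did not overlap, where 1.43% of all tested probe sets were called, 1.24% higher and 0.195% lower, and 3.84% lay wholly above. That call was lost in 10 of the 15 fits that left out 1 array each, with an adjusted p of up to 0.243 (limma), namely without control replicate 3, 4 or 5, any 10 nM replicate, or 100 nM replicate 1, 2, 3 or 6. In those 10 fits, 0.0158% to 0.787% of all tested probe sets were called between the doses. Its set-aside arrays read 6.86 and 9.40, below all controls and above all other arrays. No source used here says which transcripts of Bmp2 each probe set reads.

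**Figure D2:**
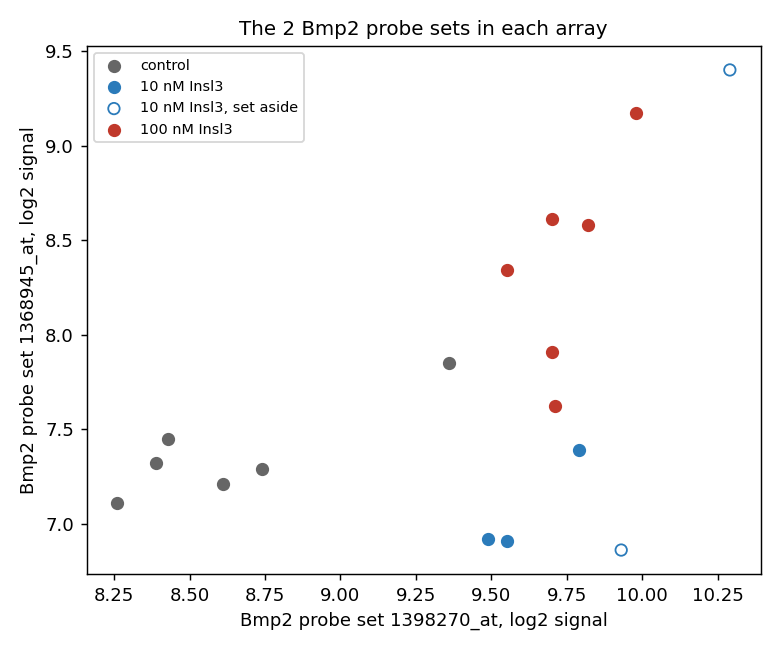
Log2 signal of Bmp2 probe set 1368945_at (y axis) against that of 1398270_at (x axis), 1 point per array, coloured by group. The 3 kept 10 nM arrays lie beside the 100 nM arrays on the x axis (9.49 to 9.79) and within or below the controls on the y axis (6.91 to 7.39).

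Bmp3 encodes an atypical member of the family that opposes osteogenic BMPs in mouse bone. Its signal was 5.14, 5.97 and 7.16 in controls (lowest, median, highest), 6.79, 7.72 and 7.04 at 10 nM, and 6.40, 7.67 and 8.08 at 100 nM. At 100 nM, 5 of 6 arrays lay above the highest control, and replicate 1 lay within the control range. The difference from control was 1.44 ± 0.35 at 100 nM (SE; interval 0.69 to 2.18; adjusted p = 0.0179, limma). At 10 nM it was 1.10 ± 0.43, or 2.14-fold, which did not pass the test (interval 0.18 to 2.01; adjusted p = 0.128, limma). The doses differed by 0.34 (interval -0.58 to 1.25; adjusted p = 0.833, limma), so a higher level at 100 nM than at 10 nM was not shown. The set-aside arrays read 6.44 and 6.81, within the control range.

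Bmp4, the close relative of Bmp2, read 9.42, 9.79 and 9.93 in controls, 9.42, 9.08 and 9.67 at 10 nM, and 8.96, 9.54 and 10.18 at 100 nM. The ranges overlapped throughout, and the difference from control was -0.16 at 100 nM (interval -0.58 to 0.26; adjusted p = 0.658, limma) and -0.35 at 10 nM (interval -0.86 to 0.17; adjusted p = 0.419, limma). Its 100 nM arrays fell into separate ranges, 8.96 to 9.31 for replicates 1, 2 and 6 and 9.77 to 10.18 for replicates 3, 4 and 5. The controls of the same numbers read 9.42 to 9.73 and 9.86 to 9.93.

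Bmp7 and Bmp6 belong to another branch of the family. Bmp7 read 8.42, 8.88 and 9.36 in controls, had a mean of 8.95 ± 0.05 at 10 nM (SD, n = 3) and read 8.95, 9.10 and 9.37 at 100 nM. Its difference from control at 100 nM was 0.24 ± 0.12 (SE; interval -0.02 to 0.51; adjusted p = 0.231, limma), and without control replicate 6 it was 0.34 and passed the test (adjusted p = 0.0356, limma). Of the 4 probe sets of Bmp6, 2 stayed at 2.11 and were not tested. Probe set 1388920_at averaged 4.54 ± 0.52 in controls, 4.48 ± 0.21 at 10 nM and 4.26 ± 0.30 at 100 nM (SD, n = 6, 3 and 6), with overlapping ranges and adjusted p of 0.438 at 100 nM and 0.932 at 10 nM (limma). Probe set 1388201_at read 2.74 in most arrays and was not called either (adjusted p = 0.248 and 0.667, limma).

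**Figure D3:**
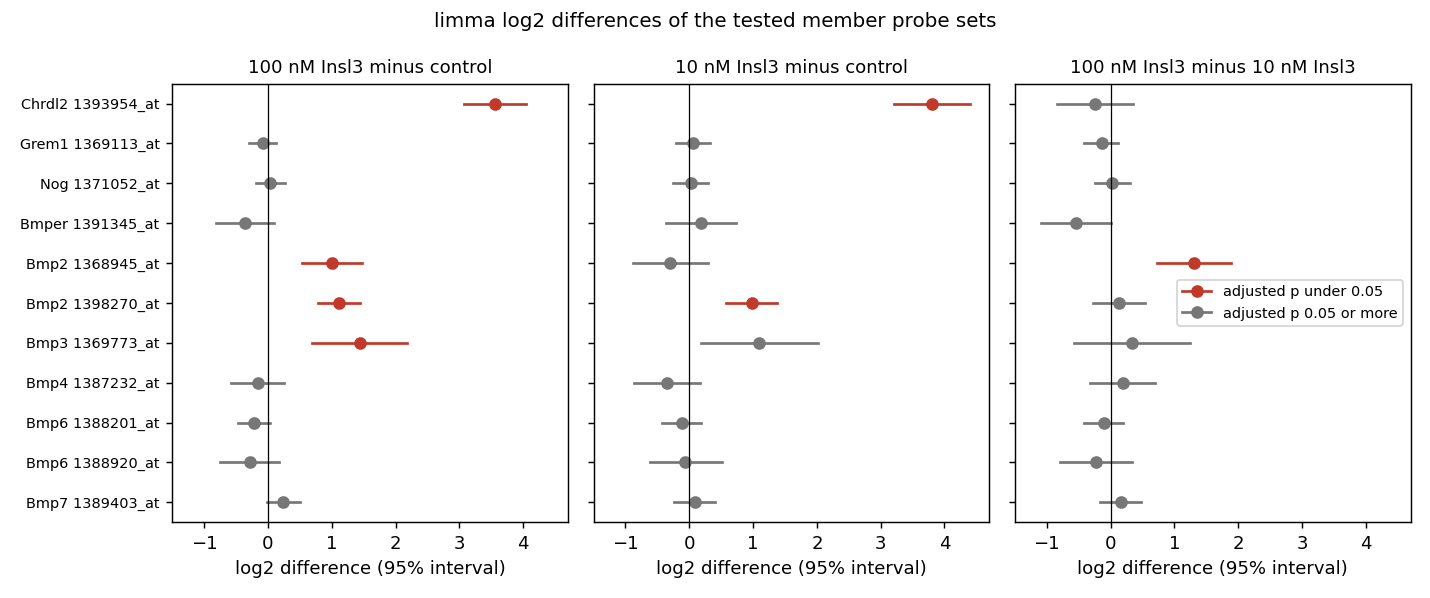
Log2 differences (x axis) of the 11 tested member probe sets (y axis) in the 3 comparisons, with 95% intervals from limma, red where the adjusted p was under 0.05. Chrdl2 stands at 3.56 and 3.81 against control and at -0.24 between the doses, and Bmp2 probe set 1368945_at is the only red point between the doses.

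Within groups, the main direction of variation, 27.3% of the variance within groups, split replicates 1, 2 and 6 from replicates 3, 4 and 5, a division for which the labels name no batch. In replicates 3, 4 and 5 alone, 100 nM exceeded control by 3.80 log2 units for Chrdl2, 1.22 for Bmp2 probe set 1398270_at, 0.70 for Bmp2 probe set 1368945_at and 1.97 for Bmp3. In replicates 1, 2 and 6 alone the differences were 3.33, 1.00, 1.30 and 0.90. Chrdl2 passed the test in each set (adjusted p = 0.00699 and 0.0169, limma). Bmp2 probe set 1398270_at and Bmp3 passed in replicates 3, 4 and 5 (adjusted p = 0.00846 and 0.0259, limma) and not in replicates 1, 2 and 6 (0.117 and 0.47). Bmp2 probe set 1368945_at passed in neither set (0.0974 and 0.0684). Over all tested probe sets, 8.93% were called at 100 nM in replicates 3, 4 and 5 alone and 1.06% in replicates 1, 2 and 6 alone. The sets were taken from these same values, and a difference between them was not tested. At 10 nM, where replicates 1 and 2 can be set against controls 1, 2 and 6, Chrdl2 exceeded control by 3.50 (adjusted p = 0.0091, limma) and Bmp2 probe set 1398270_at by 0.84 (adjusted p = 0.213, limma).

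The rest of the pathway was described from 6 lists that share no gene with the members, 77 genes in all, of which 61 had a probe set and 49 were tested. At 100 nM, 6 rose, 2 fell and 41 did not pass, or 16.3% called, against 10.9% of all tested probe sets, with a median log2 difference of 0.08 against -0.00. At 10 nM, 3 rose, 5 fell and 41 did not pass, or 16.3% against 10.6%, with a median of 0.10 against 0.03. The 3 that rose at 10 nM were Gdf11, Bmp1 and Smad5. With the set-aside arrays added, Gdf11 and Bmp1 differed from control by -0.07 and -0.15. The Smad5 call was lost in 11 of the 15 fits that left out an array, and its probe set 1378255_at differed by -0.89. None of the 5 that fell turned round, but Bmpr1a, Bmpr2, Smad1 and Id2 each lost the call in some alternatives. Between the doses 2 rose and 0 fell, or 4.08% against 1.43%. These counts take 1 standing probe set per gene, the one of highest mean, while the shares set against them are of all tested probe sets. In a fit of the 13013 probe sets above 6.601 in at least 3 arrays, 14.5% were called at 100 nM, 13.7% at 10 nM and 2.76% between the doses. A background of 1 probe set per gene was not computed, so no excess is read from the lists.

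Other ligands of the family were measured for 10 of 17 genes and tested for 4. Gdf10, also called Bmp3b and the closest relative of Bmp3, moved the other way from Bmp3. It read 10.15 to 10.60 in controls, 9.19 to 9.61 at 10 nM and 8.76 to 9.48 at 100 nM, with no overlap between treated and control arrays. It fell by 1.14 log2 units at 100 nM (2.20-fold lower; adjusted p = 5.91e-05, limma) and by 0.98 at 10 nM (adjusted p = 9.82e-04, limma). Bmp5, of the branch of Bmp6 and Bmp7, rose by 0.92 at 100 nM (6.58 to 7.22, against 4.48 to 6.40 in controls; adjusted p = 0.0409, limma) and stood 0.94 above control at 10 nM without passing (adjusted p = 0.087). The Bmp5 call at 100 nM was lost in 10 of the 15 fits that left out 1 array each, with adjusted p of up to 0.085, namely without control replicate 4 or 5, 10 nM replicate 1 or 2, or any 100 nM replicate. Gdf11, which acts through activin receptors, rose at both doses by 0.30 and 0.38 (adjusted p = 0.033 and 0.0283, limma), calls lost in 7 and 3 of those fits (adjusted p of up to 0.0728 and 0.107).

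Of 9 tested genes for other secreted modulators, 3 rose at 100 nM and 0 were called at 10 nM. Fst encodes follistatin, which binds activins and some BMPs. Its standing probe set read 8.79 to 9.24 in controls, 9.17 to 9.28 at 10 nM and 9.68 to 10.04 at 100 nM. All 100 nM arrays exceeded all others, with differences of 0.85 from control (adjusted p = 2.91e-05, limma) and 0.61 from 10 nM (adjusted p = 0.0182, limma), and the second probe set gave 0.77 against control (adjusted p = 0.0022, limma). Crim1, a membrane protein with chordin-type repeats that tethers BMPs, rose by 0.63 against control (adjusted p = 0.0212, limma) and by 1.04 against 10 nM (adjusted p = 0.0239, limma), reading 9.20 to 9.73 at 100 nM, 8.03 to 8.65 at 10 nM and 8.46 to 9.25 in controls. The call against 10 nM was lost for both Fst and Crim1 without 10 nM replicate 3 (adjusted p = 0.152 and 0.192, limma). It was also lost for Fst without 10 nM replicate 2 (0.0517) and for Crim1 without 100 nM replicate 2 (0.0571). Between the doses these fits called 0.0158%, 0.671% and 0.296% of all tested probe sets, in that order, against 1.43% with all 15 arrays. Fstl1, a follistatin-like protein, rose by 0.25 at 100 nM with 1 of its 3 probe sets called (adjusted p = 0.0324, limma). Of 4 tested proteases 1 was called, Bmp1, which despite its name is a tolloid-type enzyme that cleaves chordin. It rose by 0.32 at 100 nM and 0.43 at 10 nM with 1 of 2 probe sets called (adjusted p = 0.0364 and 0.0201, limma). The calls at 100 nM were lost in 8 of the 15 fits for Fstl1 and for Bmp1 (adjusted p of up to 0.0731 and 0.0773), and that of Bmp1 at 10 nM in 2 (up to 0.124). With all 17 arrays the 10 nM differences of Gdf11 and Bmp1 were -0.07 and -0.15.

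Of 12 tested receptors and co-receptors, 0 were called at 100 nM and 2 fell at 10 nM. Bmpr1a, a type I receptor for Bmp2 and Bmp4, read 9.84 to 10.04 at 10 nM, against 10.41 to 11.02 in controls, and fell by 0.85 log2 units (adjusted p = 0.00566, limma). Bmpr2, the type II receptor for most BMPs, read 8.04 to 8.61 at 10 nM, against 9.25 to 9.85 in controls, and fell by 1.14 (adjusted p = 0.00679, limma). The Bmpr2 call was lost without 10 nM replicate 3 (adjusted p = 0.0566). At 100 nM they differed from control by -0.32 and -0.27 (adjusted p = 0.158 and 0.399, limma), and neither receptor passed the test of 100 nM against 10 nM.

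Among 11 tested Smads and regulators, Smad1, a receptor Smad of the BMP branch, fell at both doses by each of its 2 probe sets. Probe set 1389373_at fell by 0.22 at 100 nM and 0.26 at 10 nM (adjusted p = 0.0165 and 0.0216, limma), and probe set 1369174_at by 0.43 and 1.10 (adjusted p = 0.0432 and 6.6e-04, limma). The 100 nM call of 1369174_at was lost in 11 of the 15 fits (adjusted p of up to 0.093), and the 10 nM call of 1389373_at in 3 (up to 0.0955). Between the doses, 1369174_at was 0.68 higher at 100 nM than at 10 nM (adjusted p = 0.0485, limma), a call lost in 11 of the fits (up to 0.289). In those 11 fits, 0.0158% to 1.01% of all tested probe sets were called between the doses. Smurf2, a ubiquitin ligase for Smads, fell by 1.17 at 10 nM with 1 of its 2 probe sets, 1398420_at (adjusted p = 0.0293, limma), lost in 5 of the fits (up to 0.176), while its standing probe set differed by 0.23 (adjusted p = 0.343). Smad5, another receptor Smad, had 4 probe sets that disagreed: at 10 nM the standing one rose by 0.42 (adjusted p = 0.0471, limma) and 1378255_at fell by 0.89 (adjusted p = 0.0197, limma), so no direction is given for the gene. Leaving out 1 array ended the first call in 11 fits and the second in 3 (adjusted p of up to 0.18 and 0.104). At 100 nM, Smad5 probe set 1369276_at rose by 0.41 (adjusted p = 0.0388, limma), a call lost in 9 of the 15 fits (up to 0.0828). The standing Smad5 probe set did not pass at 100 nM (0.25; adjusted p = 0.142, limma).

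Of 9 tested genes that BMP signalling is known to induce, 0 were called at 100 nM and 1, Id2, fell at 10 nM by its standing probe set. Id2 encodes an inhibitor of basic helix-loop-helix factors. It fell by 0.96 log2 units with its standing probe set (10.68 to 10.90 at 10 nM, against 10.93 to 12.22 in controls; adjusted p = 0.0124, limma) and by 0.80 with the second (adjusted p = 0.0225, limma). Without 10 nM replicate 3 neither Id2 probe set passed (adjusted p = 0.0724 and 0.0646, limma), and the second was also lost without 10 nM replicate 1 or 2 (0.0773 and 0.0943). At 100 nM its difference was -0.45 (adjusted p = 0.132, limma). The related Id1 and Id3, direct targets of BMP Smads, differed from control by 0.28 and 0.34 at 100 nM (adjusted p = 0.067 and 0.0542, limma) and by -0.04 each at 10 nM. Msx1 went the other way, by -0.62 at 100 nM and -0.82 at 10 nM (adjusted p = 0.101 and 0.0802, limma). Every 10 nM array of Msx1 lay below every control. Id1, Id3 and Msx1 were not called, and the list's median difference was -0.01 at 100 nM and -0.04 at 10 nM. Tbx3, a T-box transcription factor, has 4 tested probe sets, of which 1381464_at read 6.26 to 6.71 at 10 nM, against 7.83 to 8.22 in controls, and fell by 1.58 (adjusted p = 9.3e-04, limma). The same probe set was 1.43 higher at 100 nM than at 10 nM (adjusted p = 0.0182, limma), lost without 10 nM replicate 3 (0.152). The standing Tbx3 probe set differed from control by -0.26 at 10 nM (adjusted p = 0.29, limma), and none of the other 3 was called in any comparison.

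**Figure D4:**
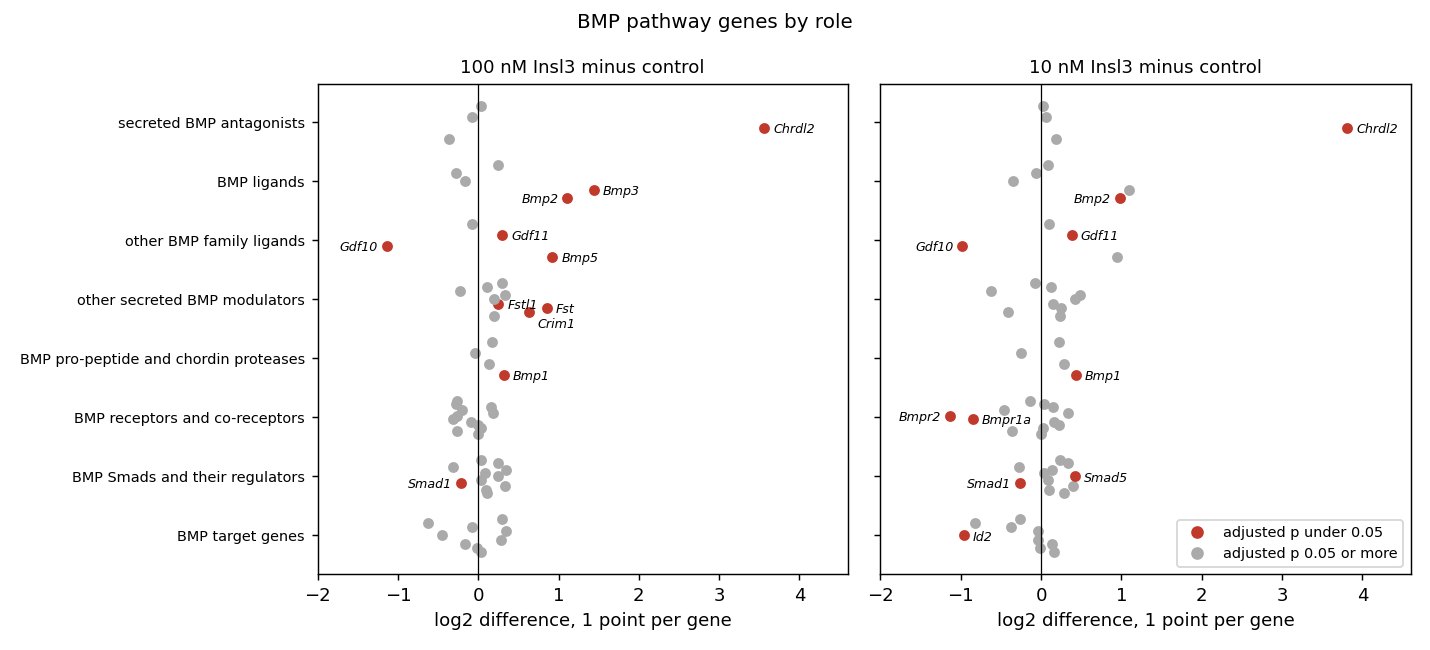
Log2 difference from control (x axis) of each tested BMP pathway gene by its standing probe set, at 100 nM (left) and 10 nM (right), grouped by role (y axis), red and named where the adjusted p was under 0.05. Chrdl2 lies far from all other genes at 3.56 and 3.81, and Gdf10 is the lowest called gene at 100 nM with -1.14. The rises of Gdf11, Bmp1 and Smad5 at 10 nM did not hold in every alternative fit.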

How the data were processed

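Per the submitters' processing notes and the labels, the authors deposited GCRMA values for 17 Affymetrix arrays, 1 per biological replicate, made from 150 ng of total RNA. The labels do not state the logarithm's base; the deposited range is that of log2, as GCRMA writes. No source used here gives the version of GCRMA. The number of arrays limits the precision. The 2 arrays the submitters set aside enter 1 alternative only. Probe sets were named from GEO's platform table where it gives 1 gene. The Entrez identifiers of all 10 members matched RefSeq (GRCr8). Probe sets above 2.285 (40th percentile of the values) in at least 3 arrays were tested, 18938 in all. One model over control, 10 nM and 100 nM was fitted in limma 3.58.1 (lmFit, eBayes) in R 4.3.3, 2-sided, adjusted by Benjamini-Hochberg over all of them per comparison, threshold 0.05. "Rose" and "fell" mean past it. In list counts a gene is represented by its probe set of highest mean, called its standing probe set. The script was tested on simulated data. Same-numbered arrays deviated together at -0.07 to 0.20 (6 of 12 pairs over 0.1), and numbers were not used as pairs in the main fit. The main direction of variation within groups still sorted replicates 1, 2 and 6 from 3, 4 and 5 in every group. The kept 10 nM arrays, replicates 1, 2 and 3, were not balanced over these sets as the controls were. Alternatives were another filter, quantile normalization, the 17 arrays, 2-group fits, a replicate block, replicate sets, another empirical Bayes setting and leaving out each array. Members, lists and the genes to name (all members, called genes of the lists, and the 5 nearest to Chrdl2) were chosen with earlier results of these data known. Id1, Id3 and Msx1 are named without a call. The p-values measure the spread between the labelled biological replicates.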

Additional observations from a re-analysis of the deposited data

Results flagged for a closer look

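Among 22 groups of 6 arrays examined, 2 held an array standing apart from the others. How often chance alone gives such an array among values tied near the floor was not tested. Grem1 read 2.75 in control replicate 5, with the next highest control at 2.35. Bmp6 probe set 1388201_at read 2.11 in 100 nM replicate 6, with the other 5 arrays of the group at 2.74. Both lie near the floor of the scale, and neither gene was called in any comparison.

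The response of Bmp2 probe set 1368945_at differed between the doses, with 100 nM exceeding 10 nM by 1.30 log2 units (adjusted p = 0.036, limma), while its second probe set differed by 0.13. The call was lost in 14 of 24 alternatives, 10 of them fits without 1 array (adjusted p of up to 0.27).

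The 2 arrays at 10 nM that the submitters left out still lay above every control for Chrdl2, at 7.16 and 8.20 where the highest control read 5.78. They did so as well for Bmp2 probe set 1398270_at, at 9.93 and 10.29 where the highest control read 9.36.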

How the results depend on the processing

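Chrdl2 passed the test against control under all 25 alternatives at 100 nM (3.33 to 3.80 log2 units, adjusted p up to 0.0169, limma) and all 24 at 10 nM (3.26 to 3.99, up to 0.0091). Called member probe sets numbered 4 to 5 at 100 nM, 2 to 3 at 10 nM and 0 to 1 between the doses when each array was left out in turn. Those fits called 7.61% to 13.8%, 5.39% to 13.2% and 0.0158% to 3.27% of all tested probe sets. With replicates 1, 2 and 6 alone, called member probe sets numbered 1 at 100 nM, 1 at 10 nM and 0 between the doses, where 1.06%, 2.95% and 0.708% of all tested probe sets were called. The call between the doses was also 0 with no filter, with all 17 arrays and with the 2 groups' arrays only. In these settings 0.0709%, 1.03% and 0.0158% of all tested probe sets were called between the doses. The replicate block left 4, 2 and 1 called, and over all probe sets it left 1781, 1708 and 429, against 2065, 2004 and 271 without it. With the replicate set as a term, 2456, 2190 and 531 of all tested probe sets were called. With all 17 arrays, Bmp2 probe set 1368945_at lost its 100 nM call (adjusted p = 0.14, limma). The Bmp3 difference at 10 nM passed without control replicate 2 (1.31; adjusted p = 0.0485, limma).

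Of the differences that turned round, those of Gdf11 and Bmp1 at 10 nM had passed the test. For 100 nM against control with replicates 3, 4 and 5 alone, Nog gave -0.10, Bmp4 0.10 and Bmp6 probe set 1388920_at 0.19. For 10 nM against control with all 17 arrays, Grem1 gave -0.04, Nog -0.01, Bmp2 probe set 1368945_at 0.13, Bmp6 probe set 1388920_at 0.20, Gdf11 -0.07 and Bmp1 -0.15. Nog gave -0.01 after a second quantile normalization and -0.04 with the replicate block. For 100 nM against 10 nM, Chrdl2 gave 0.31 and Bmp2 probe set 1398270_at -0.07 with all 17 arrays, and Bmp4 -0.08 with replicates 1, 2 and 6 alone. Leaving out single arrays spanned -0.03 to 0.10 for Nog at 100 nM and, at 10 nM, -0.04 to 0.13 for Grem1, -0.05 to 0.08 for Nog, -0.16 to 0.13 for Bmp6 probe set 1388920_at and -0.00 to 0.18 for Bmp7. Between the doses Nog spanned -0.03 to 0.06. The causes were not tested. Of 1718 values recomputed, 1499 kept direction and side of the threshold, 193 lost a call, 2 gained one and 24 turned round. Signals near 2.11 limit Grem1, Chrdl1 and most Bmp6 probe sets.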
